A study of Mus musculus with 29 samples.

Results

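The 10 genes described here belong to the glucocorticoid response and to the CCAAT/enhancer-binding protein (C/EBP) family, and were followed across age in the tibialis anterior (TA) muscle of the mouse. They were chosen by symbol, and all 10 were found among the 22537 gene symbols of the count table: Nr3c1, Cebpa, Cebpb, Cebpd, Cebpg, Klf15, Fkbp5, Tsc22d3, Sesn1 and Glul. The muscles came from male C57BL/6 mice of the ageing colony of the National Institute on Aging, with no genetic change and no drug or diet treatment named for any group. All groups went through tests of physical function (treadmill, voluntary wheel, rotarod, grip and inverted cling), after which the muscles were taken under ketamine and xylazine anaesthesia, and the part of these procedures in the levels was not tested. The poly-A RNA of each whole muscle was sequenced. There were 7 mice at 6 months (6m), 7 at 24 months (24m) and 8 at 28 months or older (28m), in 29 libraries of 22 mice. The RNA of the 6m mice was made into libraries in both sequencing runs, once beside the 24m mice and once beside the 28m mice, so each old group had 6m libraries of its own run. The groups are ages of one strain and one sex, each mouse was seen at one age only, and the time of day at which the muscles were taken is not given in the sources used here.

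Glucocorticoids, the steroid hormones of fasting and stress, enter muscle fibres and bind the glucocorticoid receptor, which is held ready by heat shock proteins and co-chaperones. The hormone-bound receptor moves to the nucleus, binds DNA and switches on a set of target genes. In muscle these targets slow protein synthesis, speed protein breakdown and send amino acids, above all glutamine, into the blood, and high hormone levels waste fast fibres. C/EBP proteins are leucine zipper factors that act as dimers downstream of hormones and cytokines and often bind close to the receptor.

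Nr3c1 encodes the glucocorticoid receptor, and Fkbp5 the co-chaperone FKBP51, which lowers the receptor's affinity for hormone and is itself induced by it. Tsc22d3 encodes GILZ, an anti-inflammatory leucine zipper protein. Klf15 encodes a Krüppel-like factor that raises the breakdown of branched-chain amino acids, Sesn1 a sestrin that restrains mTORC1, and Glul glutamine synthetase, the enzyme that makes glutamine from glutamate and ammonia. Cebpb and Cebpd encode the C/EBP proteins induced by inflammation and hormones, Cebpa the one best known from fat and myeloid cells, and Cebpg a short member that works mainly as a dimer partner.

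The promoters of 8 of the 10 genes were at hand from RefSeq (GRCm38.p6), as 250 bases before and 50 bases after each of 11 annotated starts. No promoter was given for Nr3c1 and Cebpd. Letters of 6 motifs were searched on both strands of these windows and of all 32851 promoters of the table. The core of a glucocorticoid receptor site (ACANNNTGT) was held by 1 of the 11 windows, that of Glul, and by 6.85% of all promoters. One arm of a receptor site (TGTTCT) stood in 1 of the 11, at one start of Tsc22d3, and in 18.97% of all promoters. A C/EBP motif (TTGCNNAA) and the cyclic AMP response element (TGACGTCA) stood in 0 of the 11 windows, against 10.8% and 1.79% of all promoters, which says only that these letters are not in these windows. The CCAAT box stood in 6 of the 11, against 37.41%, and TATAAA in 2, against 13.62%. The 3 windows below are shown because they hold the receptor letters or belong to the C/EBP gene with the smallest p at 28m, and capitals mark the receptor core of Glul (25 bases before the start), the receptor arm of Tsc22d3 (185 bases before the start) and the TATAAA of Cebpb (21 bases after the annotated start). Each is written 5′ to 3′ on the strand of the gene, and a match is a description of letters, not of a bound site.
Glul, chr1:153899679-153899978, plus strand: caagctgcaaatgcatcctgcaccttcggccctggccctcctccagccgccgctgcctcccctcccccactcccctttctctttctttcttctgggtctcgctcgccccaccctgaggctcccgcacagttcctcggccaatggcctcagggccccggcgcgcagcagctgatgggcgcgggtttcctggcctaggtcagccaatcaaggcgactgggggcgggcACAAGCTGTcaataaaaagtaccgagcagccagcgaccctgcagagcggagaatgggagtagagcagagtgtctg
Tsc22d3, chrX:140600473-140600772, minus strand: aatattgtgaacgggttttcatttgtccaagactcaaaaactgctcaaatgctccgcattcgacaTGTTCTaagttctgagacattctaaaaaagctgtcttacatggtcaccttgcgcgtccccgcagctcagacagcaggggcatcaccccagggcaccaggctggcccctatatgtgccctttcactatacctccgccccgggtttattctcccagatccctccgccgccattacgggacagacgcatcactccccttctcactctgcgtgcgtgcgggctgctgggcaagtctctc
Cebpb, chr2:167688665-167688964, plus strand: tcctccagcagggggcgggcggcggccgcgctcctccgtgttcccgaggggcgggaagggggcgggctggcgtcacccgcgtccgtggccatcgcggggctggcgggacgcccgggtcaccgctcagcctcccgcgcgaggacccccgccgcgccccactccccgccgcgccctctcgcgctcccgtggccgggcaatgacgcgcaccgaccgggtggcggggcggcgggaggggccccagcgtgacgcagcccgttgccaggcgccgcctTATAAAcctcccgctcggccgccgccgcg

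Total counts per library were between 17633475 and 33499162, and the 10 genes had between 88 and 11883 counts in single libraries, so every gene was far above the floor of 3 counts. Levels are given as CPM (a gene's counts relative to the total of its library) after TMM scaling (trimmed mean of M values) of all 29 libraries, as mean ± SD, and fold changes come from the quasi-likelihood test of edgeR within a run, adjusted by Benjamini-Hochberg over all genes tested. The tissue label was checked against 9 fast fibre markers, whose summed level was between 117972 and 201975 CPM over all libraries, against a summed level of 78.6 to 464 CPM of 6 slow fibre markers. In bulk RNA of a whole muscle, fewer cells of a type and less RNA per cell cannot be told apart. Where old mice lie above or below all 6m mice, the share of all genes so separated was not counted.

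Per kilobase of exon at 6m in the second run, Glul (41.9 CPM per kb), Tsc22d3 (40.9) and Cebpb (31.5) had the highest mean levels. Nr3c1 (15.6 CPM per kb), Klf15 (14.1) and Cebpg (13.4) followed, and Sesn1 (5.35), Fkbp5 (5.03), Cebpd (3.99) and Cebpa (2.17) were lowest. Neighbours within each of these 3 tiers differed by less than the larger SD of the pair, other than Cebpd and Cebpa. At 28m the order opened with Glul at 95.8 CPM per kb, then Cebpb at 66.9 and Tsc22d3 at 53.3. Glul and Cebpb, and Cebpb and Tsc22d3, each differed by less than the larger SD of the pair.

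**Figure D1:**
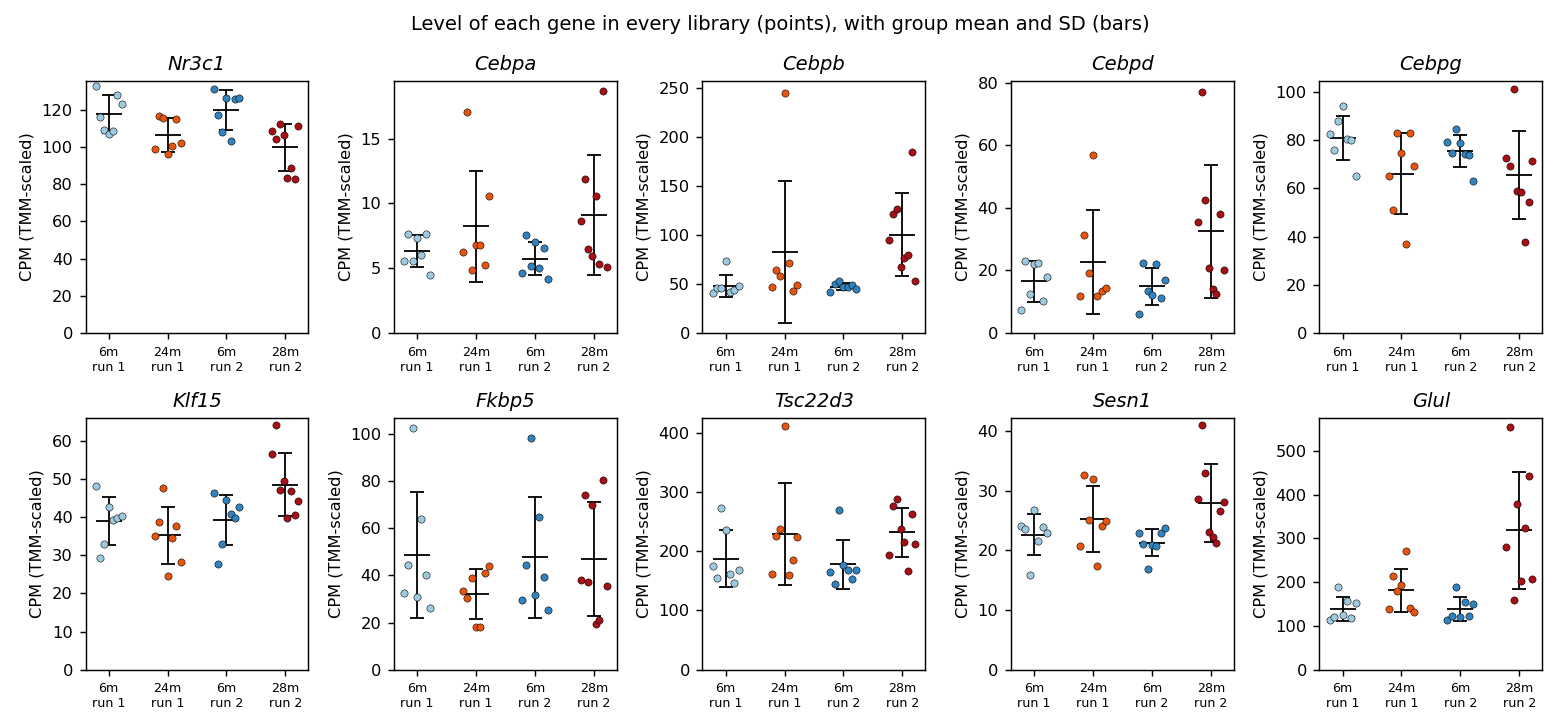
Level of each of the 10 genes in CPM (linear axis) in every library of the 4 groups, with points for libraries and bars for group mean and SD. At 28m, 7 of 8 mice lie above all 6m mice for Cebpb and for Glul, whereas for Fkbp5 0 of 8 do.

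The comparison of 28m with 6m mice of the same run asked which genes differ at the oldest age. Glul (2.25-fold), Cebpb (2.08-fold) and Cebpd (2.12-fold) rose most, Sesn1 (1.29-fold) and Tsc22d3 (1.28-fold) rose less, and Nr3c1 fell (to 0.817 of the 6m level), a call that did not hold once a dependence on exonic length was taken out. Of the 10 genes, 6 had an adjusted p under 0.05, 5 of them higher and 1 lower. Over all 12994 genes tested, 47.3% passed, 24.3% higher and 22.9% lower, so the number of genes that passed does not set the 10 apart. Differentially expressed genes (DEGs), which in this study also needed a log2 fold change of 1 or more in size, were 3 of the 10 (Glul, Cebpb and Cebpd) and 5.7% of all genes tested. Cebpb and Cebpd lay just over this limit. By limma-voom both were at 0.96 and Glul alone of the 10 stayed a DEG. Cebpb fell under the limit with the dependence on length and GC content removed (0.70) and without 28m replicate 7 (0.88), and Cebpd was no DEG without 6m replicate 1 (0.96) or 28m replicate 2 (0.78). The median log2 fold change over all genes was 0.01.

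Glul was measured at 113 CPM in the lowest, 123 in the median and 190 CPM in the highest of the 7 mice at 6m. At 28m the lowest of 8 mice had 160 CPM, the median was 302 and the highest had 554 CPM. All but 1 of the 28m mice lay above all 6m mice, and the exception (replicate 3) lay inside their range. The mean was 139 ± 27.3 CPM at 6m and 318 ± 135 CPM at 28m, a fold of 2.25 by edgeR's quasi-likelihood test (log2 fold change 1.17, SE 0.23, adjusted p = 0.00149). Glul passed in all 15 fits that left out 1 mouse, between 1.02 and 1.27, and under every other setting tried. Exons of Teddm2 on the opposite strand and of Mir8114 on the same strand overlap those of Glul. The rise came with spread, since the highest 28m mouse had 3.46 times the level of the lowest, against 1.68 times at 6m.

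Cebpb lay between 41.5 and 53.6 CPM at 6m, with a median of 46.7 CPM. At 28m the lowest mouse had 52.9 CPM, the median was 87.6 and the highest (replicate 7) had 185 CPM. Again all but 1 of the 28m mice lay above all 6m mice. The mean rose from 47.4 ± 3.90 to 101 ± 42.4 CPM, 2.08-fold (log2 fold change 1.05, SE 0.21, adjusted p = 0.00139, edgeR's quasi-likelihood test). With each library's dependence on exonic length and GC content removed, the log2 fold change was 0.70 (adjusted p = 0.00198), still past the test. Cebpb is a gene of a single exon of 1504 bases at chr2:167688915-167690418 on the plus strand of GRCm38. Exons of Tmem189 on the opposite strand overlap it, the strand setting of the counting was not stated, and Tmem189 itself was lower at 28m by 0.47 on the log2 scale (adjusted p = 0.00157).

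Cebpd, on chromosome 16 (15887286 to 15891031, plus strand), was the most variable of the 3 DEGs, and an exon of Spidr overlaps it on the opposite strand. Its levels ran from 6.15 CPM through a median of 13.4 to 22.5 CPM at 6m, and from 12.4 CPM through 28.2 to 77.0 CPM at 28m. Replicate 2 at 28m stood above the next mouse (42.4 CPM), and 4 of the 8 mice lay above all 6m mice. The mean was 14.9 ± 5.96 CPM at 6m and 32.5 ± 21.2 CPM at 28m (log2 fold change 1.08, SE 0.36, adjusted p = 0.0230). Leaving out replicate 2 gave 0.78 on the log2 scale with an adjusted p of 0.0536 by the same edgeR test, so the call was lost without that mouse.

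Sesn1 and Tsc22d3 changed less. Sesn1 was between 16.8 and 23.7 CPM at 6m (median 21.1) and between 21.2 and 41.0 CPM at 28m (median 27.4), with 5 of 8 old mice above all 6m mice. Its log2 fold change was 0.36 (SE 0.13, adjusted p = 0.0289). Leaving out 6m replicate 3, 6m replicate 5 or 28m replicate 2 ended the call, with log2 fold changes of 0.31, 0.35 and 0.27 and adjusted p between 0.0501 and 0.0626. Tsc22d3 was between 144 and 269 CPM at 6m (median 168) and between 167 and 287 CPM at 28m (median 226). The ranges overlapped broadly, with 2 of 8 old mice above all 6m mice, and the highest 6m mouse (replicate 3) stood far above the next at 176 CPM. Its log2 fold change was 0.35 (SE 0.14, adjusted p = 0.0455), and it passed in 5 of 15 fits that left out 1 mouse, lost without any 6m mouse other than replicate 3 and without 28m replicates 2, 3, 4 or 7 (log2 fold change 0.31 to 0.35, adjusted p 0.0588 to 0.0923). Its call was also lost with no filter on low counts (log2 fold change 0.35, adjusted p = 0.0647) and with the length dependence removed, where the log2 fold change was no smaller (0.41, adjusted p = 0.0525).

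Nr3c1, the receptor itself, was the one gene of the 10 that was lower past the test. It was measured at 103 CPM in the lowest, 126 in the median and 131 CPM in the highest 6m mouse, and at 82.6, 105 and 113 CPM in the lowest, median and highest 28m mouse. None of the 28m mice reached the 6m median and 3 lay below all 6m mice. The mean was 120 ± 10.6 CPM at 6m and 99.7 ± 12.7 CPM at 28m (log2 fold change −0.29, SE 0.09, adjusted p = 0.0155, edgeR's quasi-likelihood test), and the call held in all 15 fits without 1 mouse. Nr3c1 has 7684 bases of exon, and log2 fold changes at 28m ran against exonic length over 12872 genes (Spearman's rho −0.54 across genes, which are not independent). Once this dependence on length and GC content was removed, the log2 fold change of Nr3c1 was −0.06 (adjusted p = 0.625) and the call was lost.

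Cebpa, Klf15, Cebpg and Fkbp5 did not pass the test at 28m. Cebpa was measured at 5.73 ± 1.29 CPM at 6m and 9.08 ± 4.63 CPM at 28m (log2 fold change 0.63, SE 0.26, adjusted p = 0.0530). At 28m, 4 of the 8 mice lay above all 6m mice, and it did pass by DESeq2 (adjusted p = 0.0348), with the size factors of DESeq2 or upper quartile scaling in edgeR, and without 6m replicate 2 or 28m replicate 3, 4, 6 or 8 (log2 fold change 0.70 to 0.72). Without 28m replicate 7, its highest mouse, the log2 fold change was 0.40 (adjusted p = 0.121), and it did not pass by limma-voom (0.53, adjusted p = 0.101) or with the length dependence removed (0.54, adjusted p = 0.0692). Klf15 was measured at 39.3 ± 6.62 CPM at 6m and 48.5 ± 8.25 CPM at 28m (log2 fold change 0.28, SE 0.12, adjusted p = 0.0682), with 5 of 8 old mice above all 6m mice. It passed with upper quartile scaling (adjusted p = 0.0385) and without 28m replicate 5 or 7 (0.0439 and 0.0466), whereas with the length dependence removed the log2 fold change was 0.17 (adjusted p = 0.369).

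Cebpg was measured at 75.5 ± 6.60 CPM at 6m and 65.5 ± 18.4 CPM at 28m (log2 fold change −0.23, SE 0.15, adjusted p = 0.200). At 28m, 4 mice lay below all 6m mice and 1 (replicate 3, at 101 CPM) above them all, and leaving it out gave −0.34 on the log2 scale (adjusted p = 0.0349). Without 28m replicate 6 the value was −0.15 (adjusted p = 0.311), and with the length dependence removed −0.13 (adjusted p = 0.532). Fkbp5 differed widely between mice of one age. It ran from 25.4 to 98.1 CPM at 6m and from 19.4 to 80.5 CPM at 28m, with means of 47.6 ± 25.8 and 46.9 ± 24.3 CPM. Its log2 fold change was −0.05 with a 95% confidence interval from −0.78 to 0.68, which leaves room for a sizeable change either way, and its sign turned under 2 other settings and in 5 fits without 1 mouse.

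The old mice were not alike. Replicate 2 at 28m had the highest level of Glul, Cebpd, Sesn1 and Klf15 of its group and the lowest summed level of endothelial markers (222 CPM, group median 284 CPM). Replicate 7 had the highest level of Cebpa, Cebpb and Fkbp5 and the lowest of Nr3c1. Replicate 7 also had the highest summed level of adipocyte markers (638 CPM, group median 390 and lowest 172 CPM) and of macrophage markers (724 CPM, group median 117 and lowest 96.1 CPM). The same mouse had the highest sum of neutrophil markers (22.9 CPM, group median 6.29 and lowest 1.82 CPM). At 6m in the same run the sums were 194 to 233 CPM for adipocyte, 72.9 to 247 CPM for macrophage and 2.80 to 11.5 CPM for neutrophil markers. At 28m, 3 of 9 adipocyte markers tested were higher and 0 lower (Fabp4 0.76, Retn 1.63 and Pparg 0.55 on the log2 scale). Of all genes tested, 24.3% were higher and 22.9% lower. With the dependence on length and GC content removed, 4535 genes passed in all and 1 of the 9 adipocyte markers, Fabp4 at 0.74. Retn (1.11, adjusted p = 0.100) and Pparg (0.41, adjusted p = 0.0761) did not. Of 10 macrophage markers, 0 were higher and 1 lower (Cd163, −0.79). Their median was 0.65, against 0.01 over all genes, and 0.23 with the dependence on length and GC content removed. Cd68 (1.08) and Lyz2 (1.05) were furthest above 0 without passing, whereas Csf1r (−0.40), Mrc1 (−0.21) and Emr1 (−0.10) lay below 0. None of the 10 adipocyte and 10 macrophage markers was at 0 in any library, whereas the neutrophil markers Cxcr2 and Retnlg were at 0 in some 28m libraries. The part of these cells, or of endothelial cells, in the levels of the 10 genes was not tested.

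**Figure D2:**
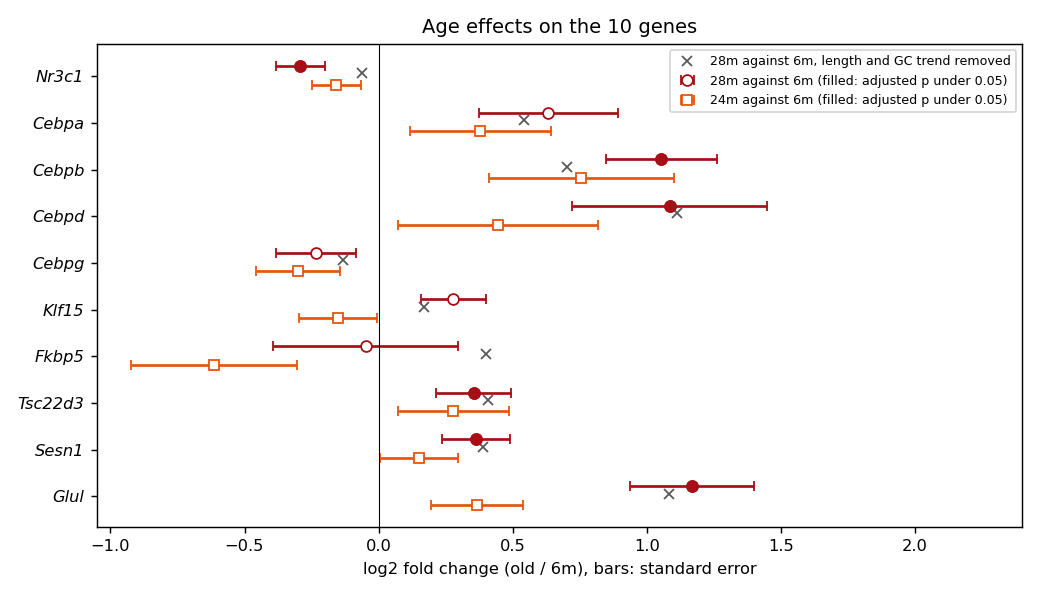
Log2 fold change of the 10 genes at 28m (circles) and 24m (squares) against the 6m libraries of the same run, with standard errors as bars, and crosses for 28m with the dependence on exonic length and GC content removed. Filled circles mark the 6 genes past the test at 28m, no square is filled, and the cross of Nr3c1 lies close to 0 at −0.06.

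The comparison with the 6m libraries of the first run gave fewer calls at 28m. Against those libraries of the same 7 mice, 2 of the 10 genes passed (Cebpb with a log2 fold change of 1.04 and Glul with 1.17) and 2981 genes in all. The calls of Nr3c1 (−0.26, adjusted p = 0.0534), Cebpd (0.95, 0.0642), Sesn1 (0.28, 0.130) and Tsc22d3 (0.29, 0.147) were lost, with log2 fold changes of the same sign and less than 1.5 times smaller. The first-run library of 6m replicate 4 differed from its partner more than the other 6 did (SD of the log2 difference over genes 0.617, against 0.237 to 0.282). Without it, 3 of the 10 passed (Glul, Cebpb and Nr3c1) and 4820 genes in all, an alternative chosen after the data were seen.

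At 24m none of the 10 genes passed the test against the 6m mice of the first run. Over all 13103 genes tested, 11 passed (0.084%) by the quasi-likelihood test of edgeR. Of the 10 genes, 2 had an unadjusted p under 0.05 (Cebpb and Glul), as had 1546 of all genes tested, and 0 passed by DESeq2, which called 215 genes, or by limma-voom, which called 12. The 28m and 24m comparisons have the same 7 young mice as controls, so their values are set side by side here and are not independent.

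Cebpb at 24m was carried by 1 mouse. The 7 mice at 24m had 47.1, 64.3, 58.7, 246, 72.0, 42.5 and 49.2 CPM in the order of their replicate numbers. Replicate 4 stood far above the rest, which overlapped with the 6m libraries of the run at 41.0 to 73.7 CPM. With all mice the log2 fold change was 0.76 (SE 0.35, adjusted p = 0.417), and without replicate 4 it was 0.20. The same mouse had the highest Cebpd (56.8 CPM) and Tsc22d3 (411 CPM) and the lowest Klf15 (24.5 CPM), Nr3c1 (96.2 CPM) and Fkbp5 of its group. It also had the group's highest summed adipocyte (576 CPM, median 235) and slow fibre markers (464 CPM, median 154) and the lowest endothelial markers (176 CPM, median 327), and the part of these cells was not tested.

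Without replicate 4, the log2 fold change at 24m moved from 0.44 to 0.05 for Cebpd and from 0.28 to 0.08 for Tsc22d3. Glul was measured at 181 ± 49.9 CPM at 24m and 139 ± 27.1 CPM at 6m, with 3 of 7 old mice above all 6m mice (log2 fold change 0.37, SE 0.17, adjusted p = 0.419). The highest 24m mouse for Glul was replicate 5 with 270 CPM, which also had the lowest Cebpg (37.1 CPM) and Sesn1 (17.4 CPM). That mouse had the lowest summed level in its group of fast fibre (117972 CPM, median 167014) and adipocyte markers (146 CPM, median 235) and the highest of erythrocyte markers (398 CPM, median 219). Fkbp5 was measured at 32.0 ± 10.6 CPM at 24m and 48.7 ± 26.8 CPM at 6m. Its log2 fold change was −0.61 with a 95% confidence interval from −1.27 to 0.04 (adjusted p = 0.440). Klf15 (−0.15), Nr3c1 (−0.16), Cebpg (−0.30), Sesn1 (0.15) and Cebpa (0.38) had log2 fold changes within 2 standard errors of 0. Cebpa was highest in replicate 2, which also had the highest summed macrophage (658 CPM, median 167) and fibroblast markers (2138 CPM, median 683) of its group, and without that mouse its log2 fold change was 0.09. The part of these cells at 24m was not tested. Without 6m replicate 3 that of Fkbp5 was −0.31, without 24m replicate 4 that of Klf15 was −0.08, without 24m replicate 2 that of Sesn1 was 0.07, and without 24m replicate 5 that of Cebpg was −0.19.

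Whether the age effect at 28m differed from that at 24m was tested in one model of all 29 libraries. None of the 10 genes passed, nor did any of the 13455 genes tested (0%), of which 1611 had an unadjusted p under 0.05, and DESeq2 called 2 genes and limma-voom 0, none of them among the 10. In this model the differences furthest from 0 among the 10 were those of Glul (0.82 on the log2 scale, SE 0.30, adjusted p = 0.399) and of Cebpd (0.66, SE 0.55, adjusted p = 0.587). That of Cebpd was 0.35 without 28m replicate 2 and 1.08 without 24m replicate 4, and with the length dependence removed that of Fkbp5 was further from 0 (1.01, adjusted p = 0.629). Klf15, with values of opposite sign at the 2 ages, differed by 0.45 (SE 0.19, adjusted p = 0.399). Cebpb differed by 0.31 (SE 0.42, adjusted p = 0.741), and by 0.13 to 0.88 with 1 mouse left out. The value of 0.88 (adjusted p = 0.0418) came without 24m replicate 4, a fit in which 1657 genes passed in all. Without that mouse and 6m replicate 4 the difference was 0.75 (adjusted p = 0.112), an alternative chosen after the data were seen.

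The 6m mice gave a check on each gene, since each gave a library in both runs. None of the 10 genes differed between the runs at 6m, with log2 differences between −0.13 and 0.03 and 0 with an unadjusted p under 0.05. Of the 12884 genes tested 0% passed, with 357 at an unadjusted p under 0.05, and DESeq2 and limma-voom called 0. For Fkbp5 the 7 mice correlated between libraries with Pearson's r of 0.996 (exact permutation p = 0.000397, adjusted over 10 genes 0.00198, Spearman's rho 0.96, adjusted p = 0.0139 by the exact permutation test, r 0.980 without the 2 mice farthest from the median). Replicate 3 had the highest Fkbp5 in both libraries (103 and 98.1 CPM) and replicate 5 the next (63.9 and 64.9 CPM), so the wide spread of Fkbp5 between young mice came back in the second library.

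Glul (r 0.991, rho 0.893), Klf15 (r 0.975, rho 0.964) and Cebpa (r 0.951, rho 0.929) kept their order likewise, with adjusted exact permutation p of 0.00397, 0.00198 and 0.00595 for r and 0.0246, 0.0139 and 0.0225 for rho. Without the 2 farthest mice their r stayed between 0.941 and 0.984. For Cebpg, Tsc22d3 and Cebpd r was between 0.862 and 0.886 and rho between 0.786 and 0.893, with adjusted exact permutation p of 0.00595 to 0.0238 for r and 0.0246 to 0.0686 for rho. Cebpb did not keep its order (r 0.05, exact permutation p = 0.901, rho 0.32), and nor did Sesn1 and Nr3c1 pass (adjusted exact permutation p 0.0990 and 0.118). Replicate 4 had the largest difference between its libraries for 7 of the 10 genes. Its second library was lower by 0.84 on the log2 scale for Cebpd and by 0.66 for Cebpb. Without the 2 mice farthest from the median, r was 0.866 for Cebpg, 0.674 for Tsc22d3 and 0.520 for Cebpd, so the last 2 relations rest in part on those mice.

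**Figure D3:**
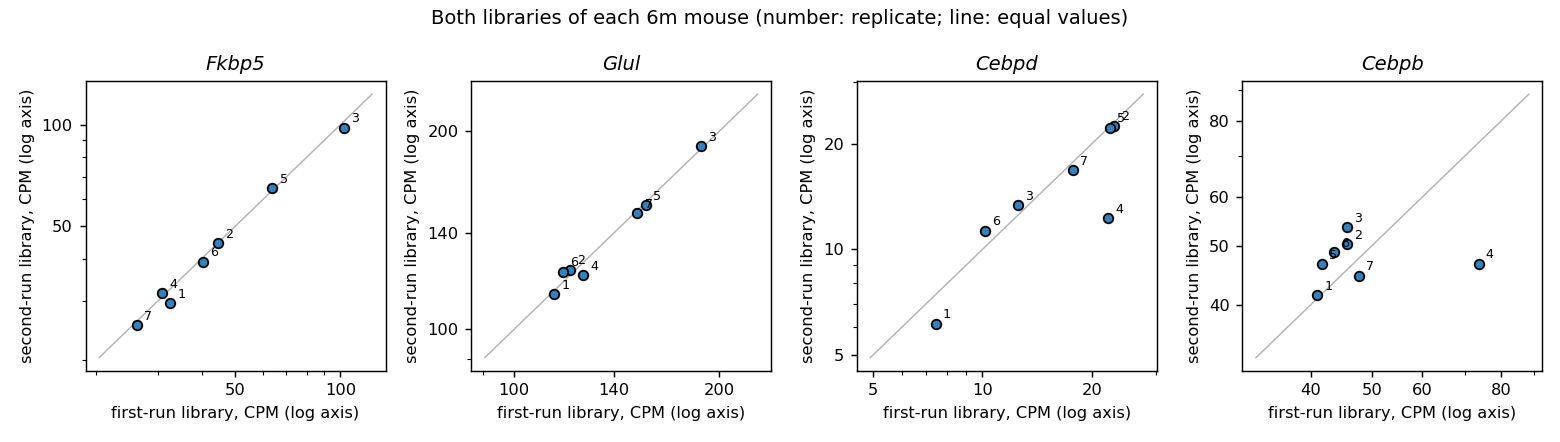
First-run against second-run CPM (log axes) of the 7 mice at 6m for Fkbp5, Glul, Cebpd and Cebpb, with replicate numbers beside the points and a line of equal values. Fkbp5 and Glul lie along the line, and replicate 4 lies off it for Cebpd and Cebpb.

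Pairs among the 10 genes were compared across the mice of one age, 45 pairs at each age, with two-sided exact permutation tests of log2 CPM. None passed after adjustment. Cebpd and Sesn1 were closest at 28m, with r 0.925 over 8 mice (exact permutation p = 0.00114, adjusted 0.0513, rho 0.881 with adjusted p = 0.163, r 0.794 without the 2 mice farthest from the median of Cebpd). The same genes at 24m had r 0.859 and rho 0.964 over 7 mice (adjusted exact permutation p 0.152 and 0.0625, r 0.749 without the 2 farthest mice). Cebpd and Tsc22d3 had r 0.917 and rho 0.964 at 24m (adjusted exact permutation p 0.138 and 0.0625, r 0.918 without the 2 farthest mice).

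**Figure D4:**
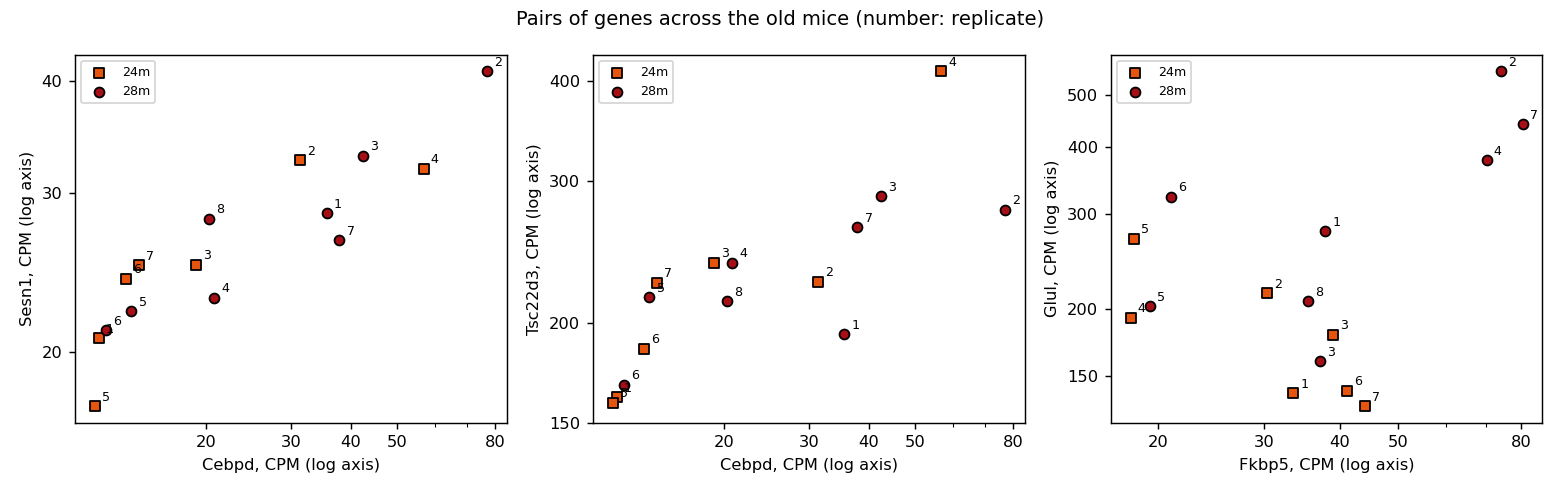
CPM (log axes) of 3 pairs of genes in each 24m mouse (squares) and 28m mouse (circles), numbered by replicate. Replicate 2 at 28m lies at the top right for Cebpd and Sesn1, and replicate 4 at 24m stands at the top for Tsc22d3.

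The most alike gene is given for 8 of the 10 genes, sought among 13454 others by Pearson's r of log2 CPM over the 29 libraries of 22 mice after the mean of each group was taken off, as a description with no test. Cebpg was nearest to Hoxa10 (0.93), Cebpa to Trf (0.90), which encodes transferrin, and Tsc22d3 to Tardbp (0.87). Fkbp5 was nearest to D19Wsu162e (0.87) and Glul to Pik3r1 (0.85), the regulatory subunit of phosphoinositide 3-kinase. Nr3c1 was nearest to Lnp (0.83), Sesn1 to 5031425E22Rik (0.82) and Klf15 to Zfp956 (0.81). These libraries share depth and 6m mice that enter with 2 libraries each.

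Other genes of the pathway at 28m were read from lists of symbols. Their counts stand beside the 47.3% of all genes that passed at this age, 24.3% higher and 22.9% lower, and nothing particular to a list is read from them. With the dependence on length and GC content removed, 4535 genes passed in all, against 6140. The median over all genes was then 0.05, and list counts under that setting stand beside these values. Of 13 tested genes that carry, activate or assist the receptor, 2 were higher and 4 lower, with a median log2 fold change of −0.23. The 4 lower ones were the coactivators Ncoa1 (−0.75) and Ncoa2 (−0.66), the corepressor Ncor1 (−0.49) and H6pd (−0.81), which supplies the cofactor for making active hormone. Every 28m mouse lay below all 6m mice for Ncoa1, Ncoa2 and Ncor1. The same held for genes of other lists, such as Clock, Nr1d1 and Kdr, and its share over all genes was not counted. With the dependence on length and GC content removed, an alternative chosen for these lists after the data were seen, 3 of the 13 were lower and 0 higher, and Ncoa1 (−0.40) and H6pd (−0.64) still passed, whereas Ncoa2 (−0.15, adjusted p = 0.130) and Ncor1 (0.03, adjusted p = 0.863) did not. Of 28 other known glucocorticoid targets, 6 were higher and 6 lower (median 0.12). Cdkn1a, a cell cycle inhibitor, rose from 10.6 ± 4.50 CPM at 6m to 48.3 ± 36.0 CPM at 28m. Ddit4, an inhibitor of mTORC1, rose by 1.09 on the log2 scale and Nfkbia, an inhibitor of NF-kB, by 0.95, whereas Irs1, an insulin receptor substrate, fell by 0.96. The adjusted p of these 4 targets by edgeR's quasi-likelihood test was between 0.000474 and 0.00217, and all 4 passed under each scaling and with the length dependence removed, where Nfkbia was at 0.54 and Irs1 at −0.54.

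Klf15 is known to induce enzymes of amino acid breakdown, of which 11 were tested. At 28m, 5 were higher and 0 lower, beside 24.3% and 22.9% of all genes tested, with a median of 0.16. Bckdhb, a subunit of the branched-chain ketoacid dehydrogenase, was higher in all 8 old mice than in any 6m mouse (37.3 ± 7.33 against 25.3 ± 2.34 CPM, log2 fold change 0.57, adjusted p = 0.00182). So were Nfkbia, Cdkn1a and Fkbp8 of other lists, and the share of all genes so separated was not counted. Bcat2, the branched-chain aminotransferase of muscle, rose by 0.47, Gpt, an alanine aminotransferase, by 0.42, and Ivd, of a later step of leucine breakdown, by 0.28. With the length dependence removed 3 of the 11 passed, Bcat2 (0.53), Gpt (0.37) and Ivd (0.46), and Bckdhb did not (0.19, adjusted p = 0.120). Of 8 further genes listed under a C/EBP symbol or as partners, Cebpz (0.33) and Trib3 (0.55) were higher and 0 lower (median 0.29). The symbol alone placed Cebpz in this list. With the length dependence removed Trib3 did not pass (0.35, adjusted p = 0.146). Under that setting Trib1 was higher (0.34, adjusted p = 0.0283) and Atf5 lower (−0.35, adjusted p = 0.0215), both named after their values were seen.

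Cytokine signals are known to induce Cebpb and Cebpd, whose products in turn act on acute phase genes. A list of both kinds held 13 tested genes, of which 3 were higher and 2 lower (median 0.48), beside 24.3% and 22.9% of all genes. The receptor genes Il1r1 (−1.10) and Il6st (−0.70), whose products bind interleukin-1 and carry the interleukin-6 signal, were lower, and the adaptor Myd88 (0.49) was higher. Il6st did not pass with the length dependence removed (−0.29, adjusted p = 0.0638). Lcn2, an acute phase gene, had a log2 fold change of 3.68 (SE 1.13, adjusted p = 0.0147) at 8.77 ± 17.4 against 0.702 ± 0.670 CPM, with 2 of 8 old mice above all 6m mice. Among 15 relatives of the 10 genes (FKBP, KLF, TSC22 and sestrin families and glutamine and glutamate enzymes), 4 were higher and 3 lower (median −0.11), with Fkbp8 (0.44), Fkbp3 (0.56) and Klf6 (0.50) higher and Tsc22d2 (−0.39) lower. With the length dependence removed 5 were higher and 0 lower and the median was 0.12, so every lower call was lost, Tsc22d2 (0.03) included. Of 17 circadian clock genes, which glucocorticoids set in many tissues, 2 were higher and 6 lower (median 0.01). Clock (−0.99), Nr1d1 (−1.02), Arntl (−1.38) and Npas2 (−1.48) were lower. With the length dependence removed 4 were higher and 5 lower, with Clock at −0.61. The time of day of collection is not given in the sources used here, and its part in these levels was not tested. At 24m 0 genes of any of these lists passed by edgeR's quasi-likelihood test.

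**Figure D5:**
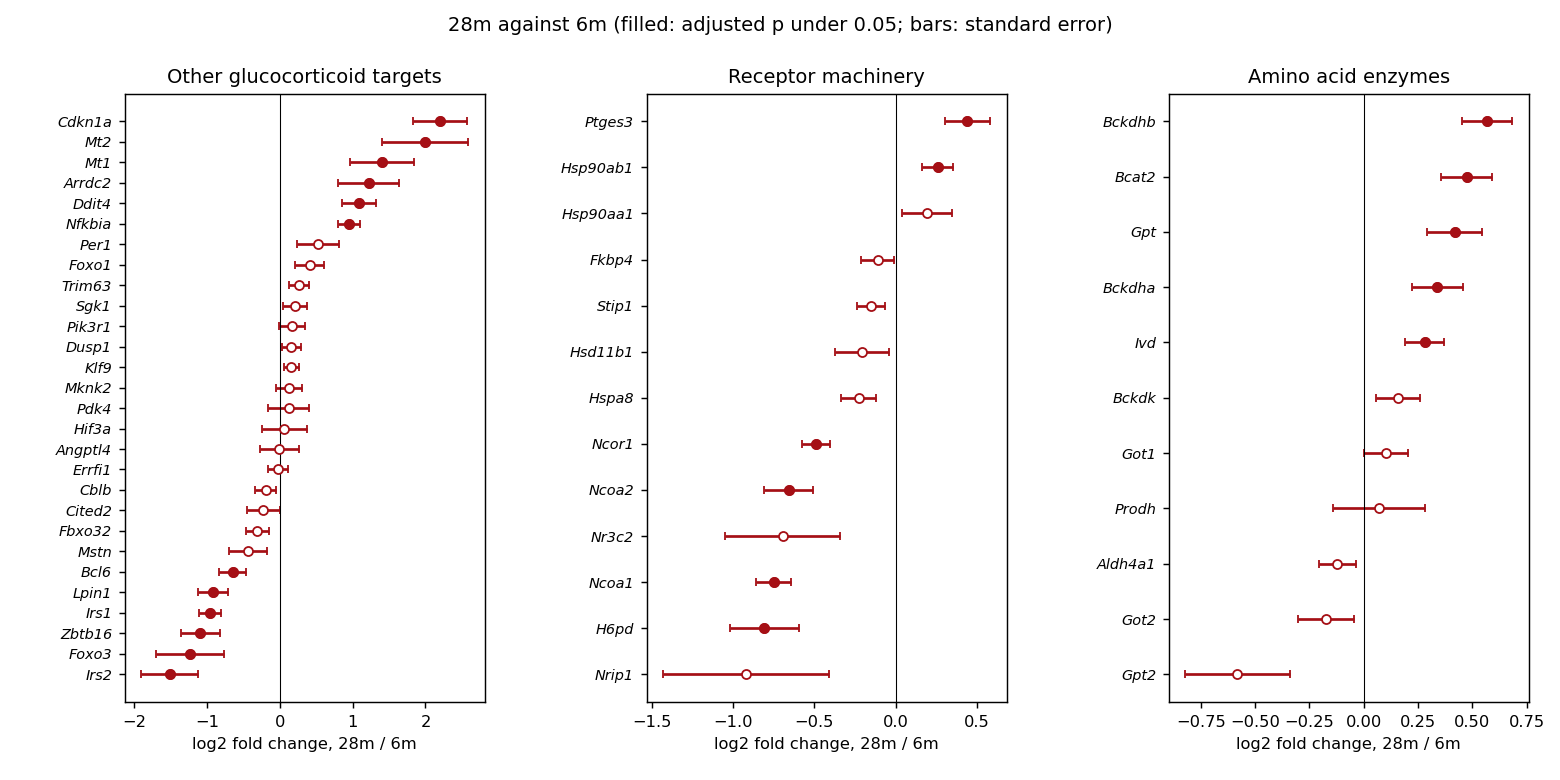
Log2 fold change at 28m with standard error for 28 other glucocorticoid targets, 13 genes of the receptor machinery and 11 enzymes of amino acid breakdown, filled where the adjusted p was under 0.05. The targets fall on both sides of 0, with 6 filled on each side, and the 5 filled enzymes all lie to the right.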

How the data were processed

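Whole TA muscle RNA was poly-A enriched, made into libraries with the NEBNext Ultra II kit and sequenced single-end on an Illumina NextSeq. The authors demultiplexed with bcl2fastq 2.20, aligned to mm10 with STAR 2.5.4b and deposited its raw read counts per gene symbol, without normalization. The strand column used and the reason for the RNA amounts that differ between labels and methods are not given in the sources used here. The design text swaps the numbers of mice at 24m and 28m, and the labels of the single samples were followed.

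The 10 genes, the lists and the tests were chosen with earlier results of these data known. Counts were tested with edgeR 4.0.16 in R 4.3.3 (filterByExpr, TMM, quasi-likelihood test, Benjamini-Hochberg over all genes tested, threshold 0.05), within a run. Standard errors were derived from the test. Levels are CPM scaled over all libraries, and log2 CPM used a prior count of 2. Intervals of fold changes are 95% intervals from the test. The difference of the age effects used one model with 4 group means, which treats both libraries of a 6m mouse as separate, and the mouse entered as a block in an alternative. Which libraries share a mouse was taken from the column names, and the libraries of one mouse deviated together (correlation across genes 0.218 to 0.814 over 7 mice). The 22 mice are separate animals.

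Alternatives were DESeq2 1.42.0, limma-voom (limma 3.58.1), other scalings and filters (at least 10 counts in every library, or none), removal of each library's spline dependence on exonic length and GC content, the 6m libraries of the other run, and leaving out each mouse. Positions, exonic lengths and GC content were read from GENCODE gene models of GRCm38 for 20205 symbols and, through synonyms, 1880 more, and 452 symbols had no gene model. Named are the 10 genes, up to 4 genes of each list with the smallest p at 28m among those that passed (the 2 smallest where fewer than 2 passed), and the most alike gene of 8 of the 10, while those of Cebpb and Cebpd are not reported here. Tmem189, Spidr, Teddm2 and Mir8114 were named for exons that overlap those of Cebpb, Cebpd or Glul. Exons of Cebpa and Cebpg also overlap those of other annotated genes, and the part of any overlap in the counts was not tested. The test script was tested on simulated data. Figures used matplotlib 3.10.9 (Python 3.11.15).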

Additional observations from a re-analysis of the deposited data

Results flagged for a closer look

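A sample far from the others of its group was found in 5 of the 40 combinations of gene and group examined, where chance flags about 1 in 20. Cebpb in replicate 4 at 24m was at 246 CPM, with the next mouse at 72.0 CPM, and Tsc22d3 in the same mouse was at 411 CPM, with the next at 238 CPM. Cebpb in replicate 4 at 6m in the first run was at 73.7 CPM, with the next library at 47.7 CPM, and the second-run library of that mouse was at 46.7 CPM, inside its group. Tsc22d3 in replicate 3 at 6m in the second run was at 269 CPM, with the next library at 176 CPM, and the first-run library of that mouse was at 273 CPM. Cebpd in replicate 2 at 28m was at 77.0 CPM, with the next mouse at 42.4 CPM. No cause was tested for any of these levels.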

How the results depend on the processing

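The number of the 10 genes past edgeR's test at 28m was 6, with 6140 of all genes. It was 8 with upper quartile scaling (6264 of all genes), 7 with the size factors of DESeq2 (6145) and 5 with no filter on low counts (5944). With the length and GC trend removed it was 4, all higher (4535). With 1 mouse left out it was between 3 and 7 (3 without 28m replicate 2, with 5580). Against 6m mice as sequenced in the first run it was 2 (2981). With those less 6m replicate 4, an alternative chosen after the data were seen, it was 3 (4820). The number over all genes moved with the setting too. The number whose age effects differed was 0, and between 0 and 1 with 1 mouse left out, the 1 being Cebpb without 24m replicate 4, a fit that called 1657 genes in all against 0 with that mouse. Fkbp5 at 28m turned sign with upper quartile scaling (0.0013 on the log2 scale), with the length and GC trend removed (0.40) and with 1 mouse left out (−0.20 to 0.23). The difference of age effects turned sign for Nr3c1 with that trend removed (0.14) and for Cebpg with 1 mouse left out (−0.033 to 0.16). Between the runs at 6m, where every value was near 0, signs turned for Cebpb with limma-voom (0.0041), with the trend removed (0.025), with the mouse as a block for the pairing (0.0037) and with 1 mouse left out (−0.059 to 0.11), for Glul with upper quartile scaling (−0.0022) and with 1 mouse left out (−0.0011 to 0.0088), and with 1 mouse left out for Nr3c1 (−0.0081 to 0.043) and Klf15 (−0.0004 to 0.034). The mouse as a block changed no call among the 10 genes. The numbers of genes past the test at 24m and between the runs, and of pairs of genes past the test on either scale, were 0 under all alternatives run. Where the call of a single gene was lost or gained, the cause was not tested. The 10 genes had 88 or more counts in every library, and the part of counting error in the standard errors was not tested.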

Other observations

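Some marker genes of endothelial cells, fibroblasts and fibre types also passed the test at 28m. Their counts stand beside the 47.3% of all genes that passed, 24.3% higher and 22.9% lower. Nothing particular to a cell type is read from these counts. With the dependence on exonic length and GC content removed, 4535 genes passed in all, against 6140. Of 6 endothelial markers 4 were lower and 1 higher by the quasi-likelihood test of edgeR, with Kdr at −1.29, Cdh5 at −0.87, Tie1 at −0.63 and Egfl7 at 0.48 on the log2 scale. Their summed level was 222 to 328 CPM at 28m and 373 to 427 CPM at 6m in the same run, without overlap. How often other sums of genes separate in this way was not counted. Of 6 fibroblast markers 3 were lower and 1 higher, with Pdgfra at −0.92, Col1a1 at −1.88, Col3a1 at −1.58 and Ly6a at 0.61. At 6m the SD was larger than the mean for Col1a1 (217 ± 241 CPM) and Col3a1 (367 ± 458 CPM). The summed level of the fibroblast markers was 2827 CPM in 6m replicate 2 against a group median of 735 CPM, and 346 to 1151 CPM at 28m, and the part of that mouse in the collagen values was not tested. Of 9 fast fibre markers 3 were higher and 1 lower, with Tnni2 at 0.80, Pvalb at 0.62, Tnnt3 at 0.47 and Myh4 at −0.48, and with each library's dependence on exonic length and GC content removed 0 of the fast fibre markers were higher and 1 lower, which was Acta1 (−0.20) and not Myh4 (−0.26, adjusted p = 0.116). Acta1 was named after its value was seen. Under the same setting, an alternative chosen for these lists after the data were seen, 0 of the fibroblast markers passed and 3 endothelial markers were lower and 1 higher. Of 6 slow fibre markers 3 were higher and 0 lower, with Tnni1 at 1.31, Tnnc1 at 1.16 and Tnnt1 at 0.997. Of 4 neutrophil markers tested, Mmp9 (−1.23) was lower and 0 higher, with S100a8 at 1.25 (adjusted p = 0.139). Of 2 erythrocyte markers tested, Alas2 (−0.43, adjusted p = 0.301) and Beta-s (0.23, adjusted p = 0.630) did not pass. Of the macrophage markers, Cd68 was at 1.08 (adjusted p = 0.0875).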
